A study of Mus musculus with 44 samples.

Results

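The liver m6A peaks of mice given Aroclor1260 together with PCB126 were compared directly with those of mice given Aroclor1260 alone. The members are the 4 peak lists of these 2 treatments, which hold 8555 of the 17573 peaks of the series at 1195 of its 1512 gene identifiers and come from 22 of its 44 libraries. Each list was compared with the list of the other treatment called against the same reference. A peak was shared where its span and a span of the other list, on 1 chromosome and 1 strand, had 1 bp or more in common, and genes were compared by the identifier given in the lists. A gene is called gained where the combination list had a peak and the Aroclor1260 list had none, and lost in the opposite case. Both words describe lists, since no animal was measured before and after exposure.

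All animals were male C57Bl/6J, a standard inbred strain, on a diet that supplied 42% of its energy as fat. They were dosed once by mouth at week 2, and the study ran for 12 weeks in all. The Aroclor1260 group received the commercial mixture alone and the combination group received the mixture and PCB126. The sources used here do not state the doses. Each group had 5 input libraries, 5 m6A immunoprecipitates and 1 pooled IgG immunoprecipitate. Where control values are given beside a gene, they come from vehicle control mice on the same diet, which received neither compound. PCB126 values come from mice on that diet given PCB126 alone.

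m6A is a methyl group on the N6 position of adenosine, placed on messenger RNA by the METTL3 and METTL14 writer complex while the RNA is made. Reader proteins of the YTH family bind it and alter the splicing, decay or translation of the transcript. PCB126 is a dioxin-like biphenyl that binds the aryl hydrocarbon receptor, which then switches on genes such as Cyp1a1 and Tiparp through the dioxin response element. Aroclor1260 is a mixture of mostly non-dioxin-like congeners that act on other receptors of the liver, CAR and PXR among them.

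Short stretches of RNA inside these peaks are shown as examples, picked because they hold the m6A consensus word. The m6A consensus, in DNA letters, is the word NNACN with A or G at each of its first 2 bases and any base but G at its last. Each line holds 30 bases on the strand of the peak, 5′ to 3′, with the word in capitals. They come from the RefSeq windows around gene starts of GRCm38.p6, the build the lists use, so only peaks near a start could be read. The first 4 lie in peaks of the combination at genes with no Aroclor1260 peak and the last 2 in peaks that all 4 lists hold. They are, in order, chr6:116650672-116650701 (+), chr6:116650689-116650718 (+), chr10:41519516-41519545 (+), chr1:130717117-130717146 (-), chr3:97629006-97629035 (+) and chr11:22972915-22972944 (+).
Depp1, first word: gttgggtttgccAGACCgcacaggggaaga
Depp1, second word: gcacaggggaagAAACCacagcacatcgtc
Cd164: cgcctgggctgaAGACAcaatgtcgggctc
Pfkfb2: gaaggacccaccAAACAgtcacgccgctgg
Fmo5: tttctttctttaGGACAagtgacgcagacc
Zrsr1: acattccaacgcAAACActggccttcgact
A match is a description and does not mark a methylated base. Such a word, searched on the transcribed strand and with overlapping words counted once, was found in the last 30 bases of 28.7% of all 32851 windows and of 21.2% of the 212 windows of gained genes. These shares count the window ends whether or not a peak covers them, so they give only how common such words are near gene starts.

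The combination lists were longer. Against input, 506 peaks at 240 identifiers were listed after Aroclor1260 and 2284 at 750 after the combination, a ratio of 4.51 (95% interval from counting 4.10 to 4.97). Against IgG the numbers were 2082 at 631 and 3683 at 1045, a ratio of 1.77 (1.68 to 1.87). Median fold enrichment was 2.13 and 2.40 against input and 2.62 and 3.20 against IgG, in the order Aroclor1260 and combination. This fold is the value the authors' caller gave to each peak, m6A over reference, and values from different lists are set side by side without a test. Each list was called once for a whole treatment, so there is no value per animal and the spread between mice is unknown. The depth behind each list is also unknown, and its part in the lengths of the lists was not tested. Fewer cells of a type and less RNA per cell cannot be told apart in whole liver. Between 90.9 and 96.0% of the peaks of each list lay on the plus strand, so a gene on the minus strand was rarely seen in any of them.

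Most Aroclor1260 peaks were found again in the combination. Against input this held for 446 of 506, or 88.1% (Wilson 95% interval 85.0 to 90.7%), and against IgG for 1490 of 2082, or 71.6% (69.6 to 73.5%). The reverse share was small, since 1908 of the 2284 combination peaks called against input, or 83.5% (82.0 to 85.0%), overlapped none after Aroclor1260. Against IgG that share was 63.0%, from 2319 of 3683 peaks. Of the 1908 peaks, 1688 lay in genes with no Aroclor1260 peak against input and 220 in genes with one elsewhere. The Aroclor1260 list called against IgG held 761 of the 1908, or 39.9% (37.7 to 42.1%), so a peak absent after Aroclor1260 with one reference was often listed with the other.

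**Figure D1:**
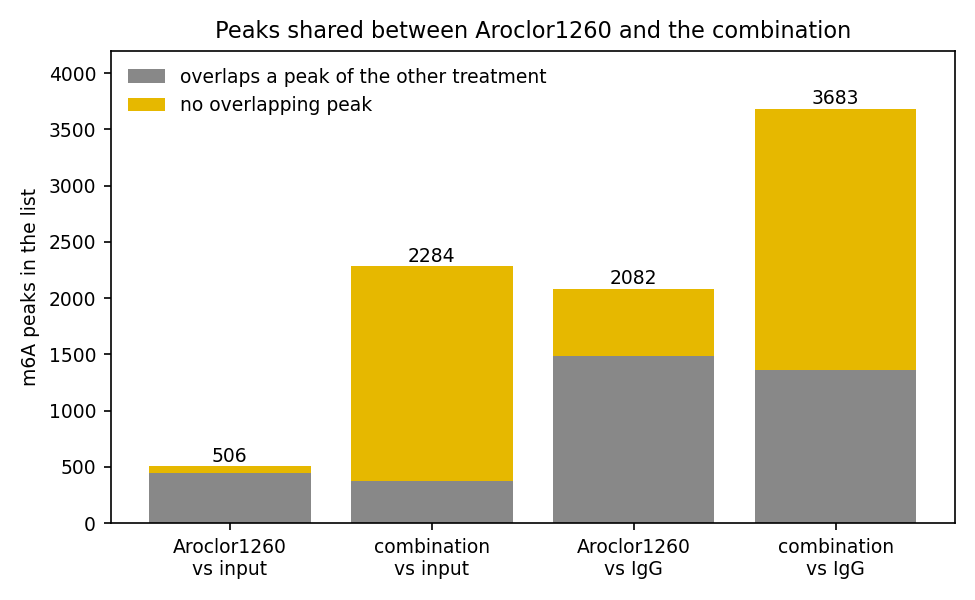
Number of m6A peaks (vertical axis) in each of the 4 lists, split into peaks that overlap a peak of the other treatment called against the same reference and peaks that do not. The grey part nearly fills the Aroclor1260 bar against input (446 of 506) and is the smaller part of both combination bars (376 of 2284 and 1364 of 3683).

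The shared peaks were the stronger ones within each list. Combination peaks found after Aroclor1260 had a median fold of 4.12 and a median exonic width of 399 bp against input, and those not found had 2.24 and 198 bp. Against IgG the medians were 3.70 and 2.90 in fold and 251 and 151 bp in width. Under a rule of 1 bp a wider peak is more easily shared, so the difference in width is partly built in. When the combination peaks called against input were ranked by fold and cut into 5 equal bins, 7.02% of the lowest bin and 41.1% of the highest were found after Aroclor1260. The 60 Aroclor1260 peaks without a partner were weaker, with a median fold of 1.6 and 2.27 for the other 446, and 35 of the 60 were in the combination list called against IgG. Even in the highest bin, with folds from 4.12 to 53.9, only 188 of the 457 combination peaks had a partner after Aroclor1260.

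**Figure D2:**
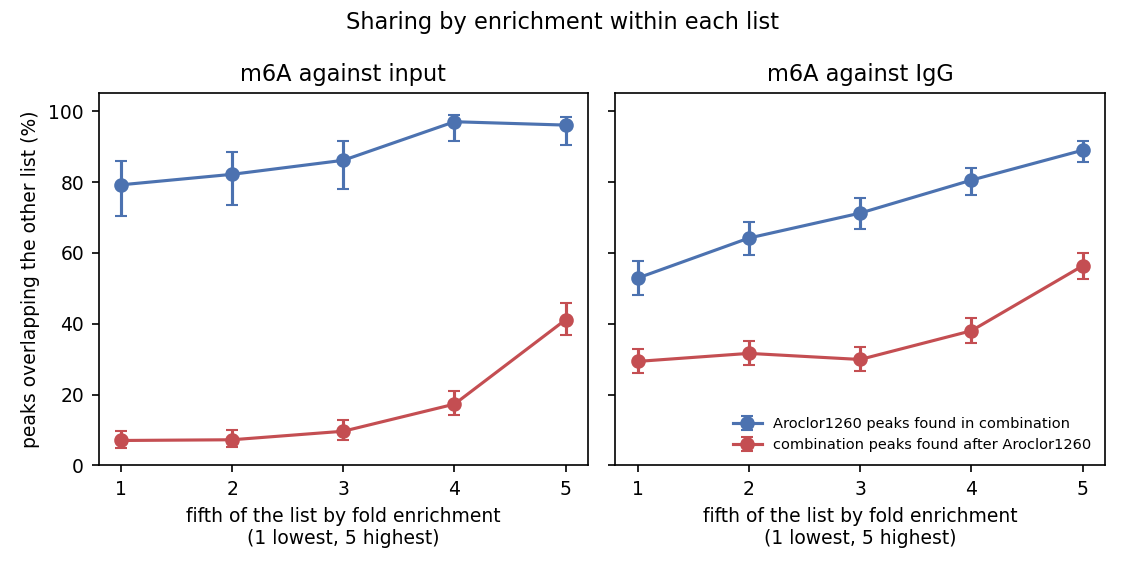
Percent of peaks that overlap the other treatment's list (vertical axis) in 5 equal bins of the authors' fold enrichment (horizontal axis), with Wilson 95% intervals for counting error. Against input the combination line goes from 7.02% in the lowest bin to 41.1% in the highest, and the Aroclor1260 line from 79.2 to 96.1%.

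Where a gene had peaks in both lists, the 2 treatments ranked the genes much alike. The 223 identifiers with a peak in both lists called against input, 29.1% of the 767 with a peak in either, had a Spearman correlation of 0.890 between their highest folds, given as a description across genes that are not independent and that were called by the same program. Against IgG it was 0.745 over 521 identifiers, 45.1% of 1155. Of the 223, 82 had more peaks in the combination, 97 the same number and 44 fewer. The spans of 67 peaks were identical to the base in the 2 lists.

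The genes that all 4 lists shared numbered 203, or 17.0% of the 1195 identifiers. The strongest was Jund, whose protein pairs with Fos proteins to form AP-1. Its single peak, on chromosome 8 from 70699096 to 70700322 in the combination, had a fold of 24.9 after Aroclor1260 and 53.9 in the combination against input, and 36.0 and 92.4 against IgG. Gid8, part of the GID complex that tags proteins with ubiquitin, had 21.9 and 36.5 against input. Agtr1a, the receptor through which angiotensin II raises blood pressure, had 21.3 and 31.3. For Ubtd1 the values were 18 and 21.2. Hs6st1, an enzyme that sulfates heparan sulfate chains, had 3 peaks in each list against input, with highest folds of 16.8 and 18.3. Bmp2, the ligand by which liver endothelium controls hepcidin, had 15.7 and 32.2. All of these folds were higher in the combination, on a scale that each call set for itself. Bhlhe40, a repressor of the circadian clock, had 14.7 and 31.6. Fga, the fibrinogen alpha chain, had 12.6 and 25.0, the mitochondrial hydrolase gene Ptrh2 had 12.4 and 17.0, and Retreg1, a receptor for the autophagy of endoplasmic reticulum, had 12.3 and 14.5. These genes were chosen for a high Aroclor1260 fold, and each of the 10 had a combination fold above it with either reference.

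Gained genes were next counted. Against input, 527 of 767 identifiers, or 68.7%, had a peak in the combination alone, and 251 of the 527 had an Aroclor1260 peak against IgG. Against IgG, 524 of 1155, or 45.4%, were gained. With both references together the number was 241 of 1195, or 20.2%, of which 217 were on the plus strand. These 241 held 704 combination peaks against input, with a median of 2 per gene, and 81 of them had a single one. Their median highest fold was 3.45, against 5.83 for the 203 genes of all 4 lists. The gene span, from the RefSeq table, had a median of 27.6 kb for gained genes, 15.2 kb for genes in all 4 lists and 21.3 kb for genes in any of them.

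The number of gained genes depended on the lengths of the lists. When the longer list was cut to the length of the shorter by false discovery rate, 51 genes were gained and 50 lost against both references, and against input alone 139 were gained and 160 lost. When it was cut by highest fold, an alternative added after the data were seen, 103 were gained and 27 lost. Of the 241 genes, 16 were called under both cuts, among them Depp1, Noct, H2-Q6, Il1rap, Jun, Cyp4a10, Ahnak, Dsg2, Galnt1, Cd164, Gab1 and Serpina3m. A lost gene cannot be recovered by these cuts, since they only shorten the combination lists.

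The 15 symbols with the highest combination fold among gained genes had no Aroclor1260 peak with either reference. Acvr2a, a receptor of activins, had 1 peak on chromosome 2 from 48897077 to 48900127, with a fold of 20.0 against input and 27.6 against IgG. Ctso, the cysteine protease cathepsin O, had 18.7 and 33.6, with its input peak on chromosome 3 from 81954288 to 81955283. Depp1, an autophagy regulator induced by FOXO factors and the gene of the first sequences above, had 16.9 and 41.8, with its peak on chromosome 6 from 116650657 to 116652746. All 3 had a peak after PCB126 alone too, at folds of 15.4, 17.7 and 17.9 against input. In control mice Depp1 had a peak with both references, at 11.3 and 41.0, Acvr2a had one against IgG only, at 15, and Ctso had none. A gain over Aroclor1260 was therefore in some genes a peak that control liver also had.

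Notch2, Tnfsf10, Il1r1, Tnrc6c, Pakap and H2-Q6 were also among these 15. Notch2, a Notch receptor needed for bile duct formation, had 2 peaks up to 13.9 against input and 6 up to 7.80 against IgG. Tnfsf10, the death ligand TRAIL, had 12.9 and 12.7 at a peak on chromosome 3 from 27335368 to 27335865. Il1r1, the receptor of interleukin 1, had 2 peaks up to 10.5 and 4 up to 11.7. These 3 genes also had a control peak against input, at 6.62, 7.29 and 6.87. Tnrc6c, which helps Argonaute proteins silence microRNA targets, had 8 peaks up to 12.1 against input and 10 against IgG, and none in control mice. The strongest lay on chromosome 11 from 117721333 to 117721833. Pakap, an anchor of protein kinase A, had 2 identifiers over the same exons, with 6 and 7 peaks up to 13.2 and 13, which are 1 signal counted under both. The class I histocompatibility gene H2-Q6, whose near-identical relatives make its reads uncertain, had 13.8 and 8.90.

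The remaining genes of that rule were Noct, Mocs3, Mtmr10, Tmem28, Zcchc2 and B230219D22Rik. Noct, the rhythmic phosphatase nocturnin, had 5 peaks up to 9.58 against input and 5 up to 18.4 against IgG. Mocs3, which supplies sulfur for the molybdenum cofactor, had 9.17 and 12.4. Mtmr10, a myotubularin relative, had 9.0 and 9.60, Tmem28 had 14.2 and 9.80, Zcchc2 had 10.3 and 22, and B230219D22Rik had 12.3 and 13.9. In control mice Zcchc2 had 2 peaks up to 6.65 against input and 6 up to 38.0 against IgG. Noct, Mocs3 and B230219D22Rik had control peaks against IgG only, up to 6.05, 6.80 and 13.5. Mtmr10 and Tmem28 had no control peak. Of the 15 symbols, Mtmr10 and H2-Q6 lacked a PCB126 peak against input and had one against IgG, at 11.2 and 17.8. Acvr2a lacked one against IgG. The other 12 had a PCB126 peak with both references. All of these genes were still called when the lists were made equal by fold, which keeps strong peaks by its construction, and Depp1, H2-Q6 and Noct were also called when they were made equal by false discovery rate.

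**Figure D3:**
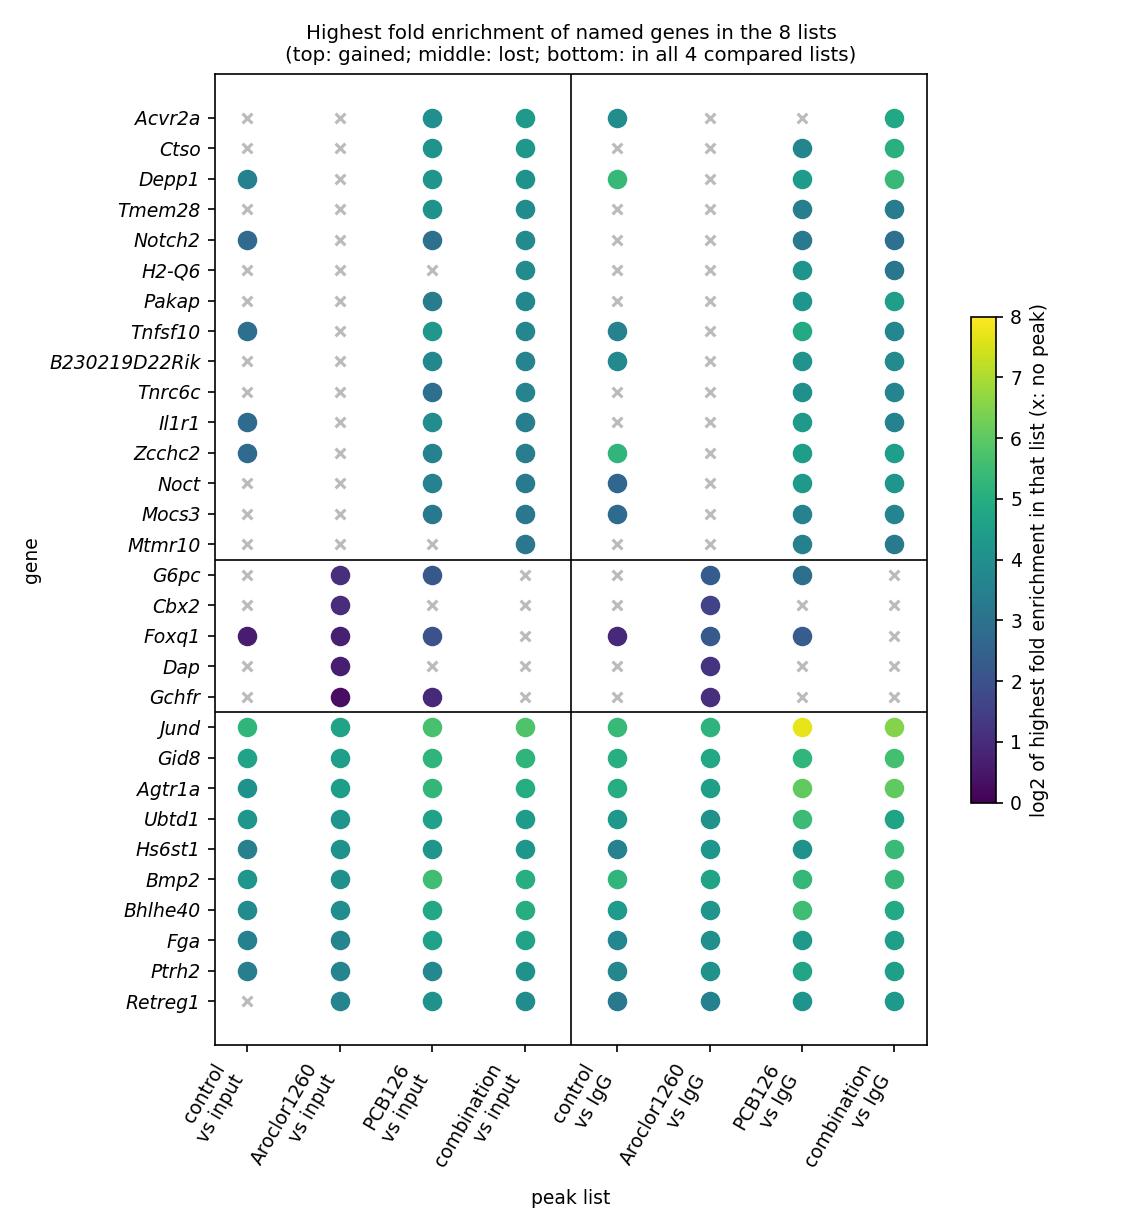
log2 of the highest fold enrichment (colour) of named genes (rows) in the 8 peak lists (columns), with a cross where a gene had no peak. The upper rows, gained with both references, are crossed in both Aroclor1260 columns, the middle rows in both combination columns, and the lower rows are filled in all 4 compared lists. Jund, for example, had 24.9 after Aroclor1260 and 53.9 in the combination against input.

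Some gained genes carried many peaks. Zfhx3, a zinc finger homeobox factor, had 19 combination peaks up to 4.17 against input and 15 against IgG, and its relative Zfhx4 had 11 and 12. Ahnak, a giant scaffold protein, had 15 and 13. Igf1, the growth factor the liver secretes under growth hormone, had 11 peaks with each reference, up to 3.90 and 5.80, spread from position 87859165 to 87936495 of chromosome 10 against input. It had no peak in control mice or after either compound alone. Smarca2, an ATPase of the SWI/SNF complex, had 10 and 9 peaks, Kmt2e had 9 and 9, and the histone acetyltransferase gene Kat6a had 8 and 10. Each of these 3 had 9 to 13 control peaks against IgG and 0 against input. The desmosomal cadherin gene Dsg2 had 9 and 9 peaks, Luzp1 8 and 6, and Onecut2, a hepatic transcription factor, 8 and 6. Zfhx3, Luzp1 and Dsg2 also had control peaks against IgG only, 12, 8 and 6 of them, while Zfhx4 and Ahnak had none. Onecut2 had 6 and 8 peaks in control mice and 6 and 6 after PCB126, so its list entry was missing after Aroclor1260 alone.

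**Figure D4:**
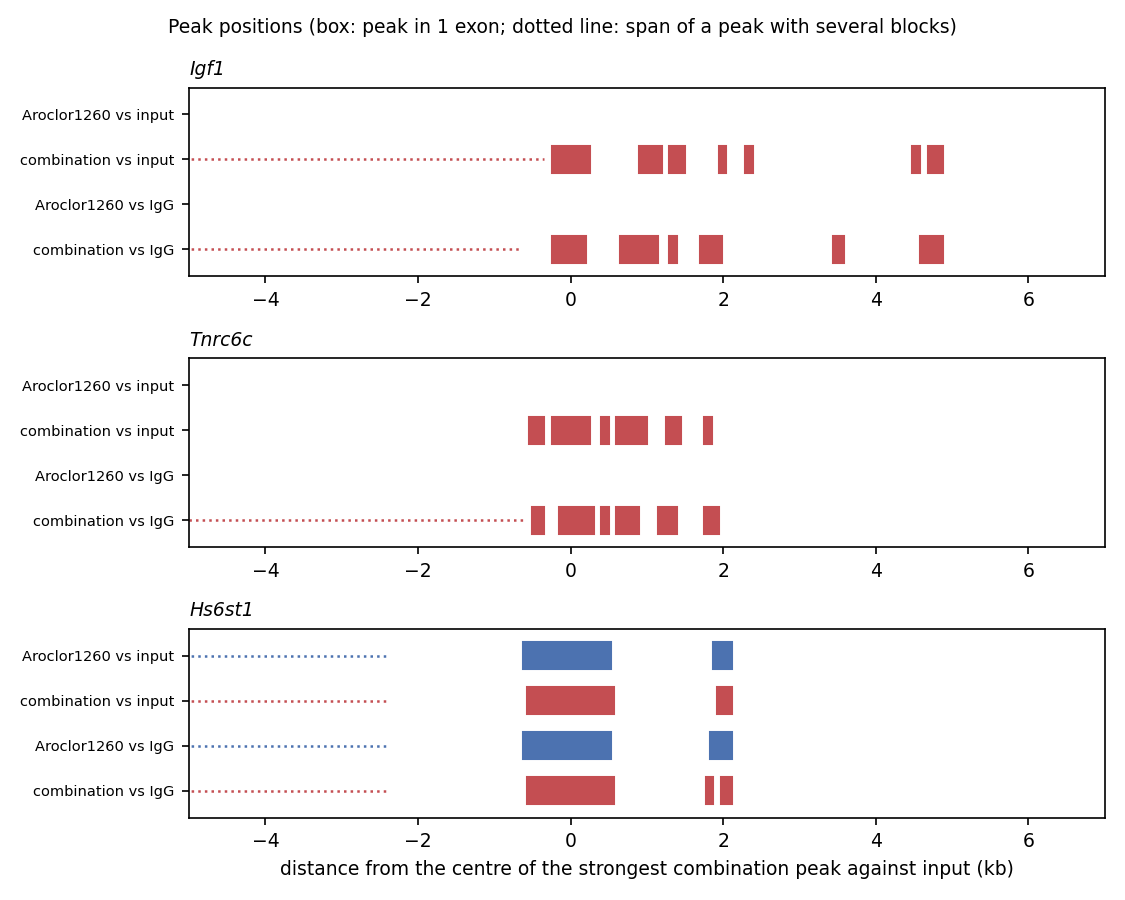
Peak positions in Igf1, Tnrc6c and Hs6st1, as distance in kb (horizontal axis) from the centre of the strongest combination peak against input, with 1 lane per list. The axis is cut at the ends shown, boxes are peaks in 1 exon and dotted lines are spans of peaks with several exonic blocks. The Aroclor1260 lanes are empty for Igf1 and Tnrc6c, while against input the 3 Hs6st1 peaks recur at the same places in both treatments. Against IgG, Hs6st1 had 3 peaks after Aroclor1260 and 4 in the combination.

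The gained genes were then looked up in the lists of the other treatments. Of the 241, 190, or 78.8%, had a peak after PCB126 alone with at least 1 reference and 133, or 55.2%, with both. The PCB126 list against IgG alone held 1159 of all 1512 identifiers of the series, so such a peak was common among genes in general. In control mice 101 had a peak with at least 1 reference, 19 of them with both, and 140 had none. The largest class, 99 genes, had a PCB126 peak and no control peak. Another 91 had a peak in both of these treatments, and 10 in control mice only. The 41 genes with a peak in neither included Igf1 and the coagulation factor gene F9. By comparison, 195 of the 203 genes in all 4 lists had a PCB126 peak with both references and 148 had a control peak with both. The PCB126 lists were also long, and the part of list length in these counts was not tested.

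Losses were few in the lists as deposited. Against input 17 of 767 identifiers, or 2.22%, had a peak after Aroclor1260 and none in the combination, and 7 of the 17 had one in the combination against IgG. Against IgG 110 of 1155, or 9.52%, were lost, and with both references 7 of 1195, or 0.586%, of which 5 could be named. G6pc, which frees glucose from glucose 6-phosphate, had 1 Aroclor1260 peak of 2.11 on chromosome 11 from 101376623 to 101376770 against input and 3 peaks up to 4.91 against IgG. PCB126 alone gave G6pc 4 peaks up to 4.46 and 3 up to 7.38, and control mice had none. Cbx2, a Polycomb subunit, had 2 peaks up to 2.00 and 3 up to 3.00, and Dap, a death-associated protein, had 2 up to 1.61 and 3 up to 2.37. Neither had a peak in control mice or after PCB126. Gchfr, which regulates tetrahydrobiopterin synthesis, had 1.23 and 2.10, with a PCB126 peak of 1.86 against input only and no control peak. The identifier at Foxq1, a forkhead factor, was on the minus strand and had 1.64 and 4.60. Control mice had 2 peaks up to 1.56 and 1 of 1.87 at this identifier, and PCB126 alone 2 up to 4.00 and 3 up to 5.00. The strand of Foxq1 is not given in the table used, so its name states the place only. The folds of lost genes were low, and only 2 losses with both references passed a fold of at least 2.

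Members of the gene lists lost against input alone were Ppara, Tnfrsf1a and Elovl5, and all 3 had combination peaks against IgG. Ppara, the nuclear receptor that senses fatty acids in fasting, had 3 Aroclor1260 peaks up to 9.63 and 0 combination peaks against input, and 4 up to 12.1 and 3 up to 11.8 against IgG. Tnfrsf1a, a receptor of tumour necrosis factor, had 1 peak of 2.84 after Aroclor1260 and none in the combination against input, and 3 up to 4.52 and 4 up to 7.45 against IgG. Elovl5, an elongase of polyunsaturated fats, had 1 peak of 1.16 and none against input, and 4 in each treatment against IgG.

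Gene lists for liver functions and cell types were read against these shares. Of the 28 lists, 24 had a member with a peak in the 4 compared lists. A call with both references is quoted below as members gained out of members with a peak, beside the 20.2% over all identifiers. These counts use the lists as deposited, and many of the calls depended on list length. When the lists were made equal, Il1rap, Jun and Cyp4a10 were called both by fold and by false discovery rate. Slco1b2, Nr0b2, Pde3b, Zhx2, Atf4, Rbp4, Cyp2c50 and Ythdc1 were called by neither. The other gained members were called under 1 of these cuts. Receptors of hormones, growth factors and cytokines had 5 of 12, namely Ifngr1, Ifnar2, Acvr2a, Il1r1 and Il1rap. Ifngr1, a chain of the interferon gamma receptor, had 2 peaks up to 4.08 against input and 2 up to 14 against IgG. Ifnar2, a chain of the type I interferon receptor, had 5 up to 4.40 and 6 up to 5.20. Il1rap, the partner chain of the interleukin 1 receptor, had 2 up to 8.11 and 3 up to 6.27. Of these 5, Il1rap had no control peak and the others had one with at least 1 reference. With lists made equal by fold all 5 were still called, and by false discovery rate Il1rap alone.

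Other receptors of that list were gained with 1 reference. Met, the receptor of hepatocyte growth factor, had 12 peaks up to 5.40 in the combination against IgG and none in any other list. Egfr, the epidermal growth factor receptor, had 6 combination peaks up to 18.4 against input and 0 after Aroclor1260, and 6 up to 34.0 and 10 up to 11.1 against IgG. Lifr, the receptor of leukaemia inhibitory factor, had 6 combination peaks up to 11.4 against IgG and none after Aroclor1260, with no peak in either against input. In control mice Lifr had 1 peak of 5.80 against input and 2 up to 10.6 against IgG. After PCB126 alone it had 3 up to 12.6 and 6 up to 12.8. Agtr1a was present in all 4 lists.

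Mitochondrially encoded RNAs had 5 gained of 7 with a peak. ND5, a subunit of respiratory complex I, had 2 combination peaks up to 8.73 against input and 3 up to 8.87 against IgG. ND2 had 5.19 and 4.37, ND6 had 4.70 and 3.98, and COX1, the catalytic subunit of cytochrome oxidase, had 2.62 and 2.30. The 16S ribosomal RNA mt-Rnr2 had 4.70 and 3.26, the same input fold as ND6. In control mice COX1 had peaks with both references, up to 1.21 and 1.55, and ND5 had 2 up to 2.53 against IgG. After PCB126 alone COX1, ND6 and mt-Rnr2 had peaks with both references, and ND2 and ND5 had none. ND4 was present in all 4 lists, with 2.29 after Aroclor1260 and 8.71 in the combination against input.

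**Figure D5:**
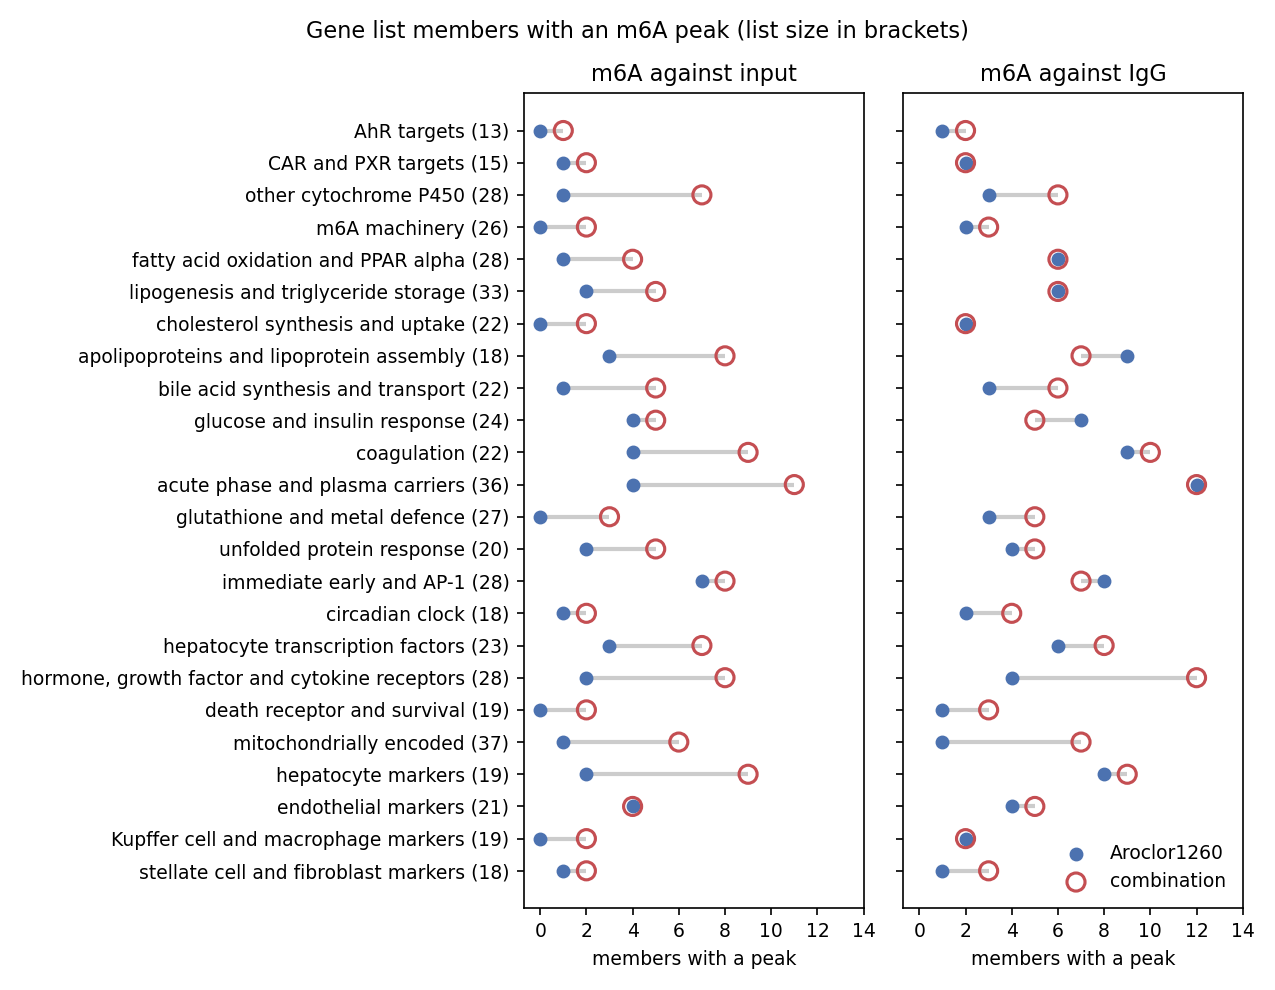
Number of members with a peak (horizontal axis) after Aroclor1260 (filled) and in the combination (open) for the 24 gene lists with a member in the 4 compared lists, with list size in brackets. Against IgG the receptor list moves from 4 to 12 members and the mitochondrial list from 1 to 7, while apolipoproteins move from 9 to 7. All identifiers with a peak against IgG go from 631 to 1045, so a rise is the general direction.

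Metabolic lists differed in their counts. Bile acid synthesis and transport had 3 gained of 7. Slco1b2, which takes up bile acids from blood, had 1 combination peak of 3.10 against input and 7 up to 4.49 against IgG, Abcg8, which exports sterols into bile, had 4.10 and 4.04, and Nr0b2, the repressor SHP that bile acids induce, had 3.30 and 3.92. In control mice Slco1b2 had 4 peaks up to 3.61 against input and 5 up to 2.75 against IgG. Its entry was thus missing after Aroclor1260 alone, while Abcg8 and Nr0b2 had no control peak. Cyp27a1, an enzyme of the acidic pathway of bile acid synthesis, had 7 peaks up to 6.00 after Aroclor1260 against IgG and none in any other list. Cytochrome P450 genes outside the classical induced families had 2 of 8, Cyp4a10 with 4.77 and 3.47 and Cyp2c50 with 3.12 and 3.75, and members of both families share sequence. Cyp4a10 had a control peak of 1.57 against input only, and Cyp2c50 had none. Cyp2c29 was in all 4 lists, with 1.58 after Aroclor1260 and 5.32 in the combination against input.

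Genes of fatty acid oxidation (6 with a peak), lipogenesis (7), cholesterol (2) and apolipoproteins (9) had none gained or lost with both references. Apob, the protein around which the liver builds its lipoproteins, showed how much the reference mattered. It had 0 Aroclor1260 and 13 combination peaks up to 18 against input, and 5 up to 2.08 and 8 up to 12.5 against IgG. Control mice had 8 Apob peaks up to 13.9 against input and 6 up to 10.8 against IgG. PCB126 alone gave none against input and 9 up to 8.10 against IgG. Scd1, the desaturase that makes oleate, had 0 and 9 peaks against input and 7 up to 8.70 and 7 up to 5.20 against IgG. Apoa5, which promotes the clearance of triglyceride, had 2 peaks in each list, at highest folds of 9.08 and 16.3 against input and 9.26 and 14.5 against IgG.

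Glucose and insulin genes went in both directions. Igf1 and Pde3b, the phosphodiesterase that carries the insulin signal in lipolysis, were gained with both references, and G6pc was lost. Against IgG, 5 of the 10 members with a peak were lost, where 9.52% of all identifiers were. They were G6pc, Pck1, the enzyme that commits carbon to glucose synthesis, with 4 peaks up to 2.74 after Aroclor1260, the glucagon receptor Gcgr with 2 up to 2.40, and the growth factor binding proteins Igfbp1 and Igfbp2 with 2 peaks each up to 2.14 and 1.56. Igfbp1 had a combination peak of 1.38 against input. Slc2a2, the liver glucose transporter, was gained against IgG alone with 6 peaks up to 10.2. Foxo1, the factor that insulin excludes from the nucleus, and Txnip, an inhibitor of thioredoxin, were in all 4 lists. Foxo1 had 9.73 and 9.86 against input, a nearly equal pair, and Txnip had 2.84 and 7.14.

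Plasma protein and stress lists had 1 or 2 gained members each. Coagulation had 1 of 12, F9 with 4.04 and 5.05, and the acute phase and carrier list had 2 of 14, the thyroxine carrier Ttr with 1.40 and 1.65 and the retinol carrier Rbp4 with 2.75 and 2.00. The glutathione and metal list had 1 of 6, Gpx1 with 1.56 and 1.45, and the unfolded protein response 1 of 5, Atf4 with 1.61 and 2.87. The immediate early genes had 1 of 9, Jun with 4.83 and 6.40, the death receptor list 1 of 3, Tnfsf10, and the circadian clock list 0 of 4. The hepatocyte transcription factors had 3 of 9, Onecut2, Cebpd with 7.24 and 12.9, and Zhx2 with 2.90 and 8.0. Atf4, Cebpd and Zhx2 also had control peaks, against IgG only, up to 2.35, 4.30 and 2.80. Cebpb, a factor of the acute phase response, was in all 4 lists, with 2.64 after Aroclor1260 and 3.15 in the combination against input and 25.3 and 5.97 against IgG. Myc had 7.72 and 18.2 against input, and 17.8 and no combination peak against IgG. The order of the treatments at these last genes thus changed with the reference.

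Of 13 genes listed as targets or partners of the aryl hydrocarbon receptor, Tiparp and Ugt1a6b had a peak in the 4 lists. Tiparp, a target that limits the receptor's own activity, had 2 combination peaks up to 13 against IgG and none in any other list. Ugt1a6b, whose last exons are shared by the whole Ugt1a locus, had 3.35 in the combination against input and none after Aroclor1260. Against IgG it had 3.03 and 2.92, and in control mice 1.65 against input and 2.35 against IgG. CAR and PXR targets had Por and Aldh1a1 with a peak and none gained with both references. Of the 26 genes of the m6A machinery, Ythdc1, the nuclear reader, was gained, with 2 peaks up to 2.67 and 3 up to 6.00, although control mice had 2 against IgG. Ythdf3, a cytoplasmic reader, had 2 combination peaks up to 20.2 and 0 after Aroclor1260 against input. Against IgG its folds were 113 in the combination, the highest of that list, and 20.1 after Aroclor1260. In control mice Ythdf3 had 2 peaks up to 10.2 against input and 5 up to 36.4 against IgG. After PCB126 alone it had 27.7 and 42.9. Zc3h13, which anchors the writer in the nucleus, had peaks in both treatments against IgG alone, 9 in the combination and 6 after Aroclor1260.

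The core of the dioxin response element, GCGTG on either strand, was searched in the 250 bases before each gene start in the RefSeq table of GRCm38.p6. It was present in 47.2% of the 212 windows of the 162 gained symbols that matched, in 35.7% of the windows of genes in all 4 lists, in 43.6% of those of genes in any of the 4 lists and in 28.2% of all 32851 windows. The gained share was thus near that of all genes with a peak. The windows of Ctso, chr3:81932351-81932600 (+), and Il1rap, chr16:26581455-26581704 (+), are shown as examples that hold a match, from the genes with PCB126 and combination peaks and no control or Aroclor1260 peak. Other genes of that pattern, such as Jun and Ahnak, held 0 matches. Capitals mark GCGTG, or CACGC where it lies on the opposite strand.
Ctso: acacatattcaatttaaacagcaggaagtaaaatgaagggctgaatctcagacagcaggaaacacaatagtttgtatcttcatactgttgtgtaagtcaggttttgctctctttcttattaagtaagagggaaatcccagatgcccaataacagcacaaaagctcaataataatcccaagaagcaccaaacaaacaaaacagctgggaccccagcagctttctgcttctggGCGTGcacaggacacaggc
Il1rap: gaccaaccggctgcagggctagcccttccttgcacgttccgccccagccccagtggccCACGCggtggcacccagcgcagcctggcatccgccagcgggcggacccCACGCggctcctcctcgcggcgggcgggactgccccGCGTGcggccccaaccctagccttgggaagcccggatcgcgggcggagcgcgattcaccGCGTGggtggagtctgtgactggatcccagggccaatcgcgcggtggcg
Ctso held 1 match and Il1rap 4, the nearest 19 and 49 bases from the start. These are matches of letters and say nothing about binding.

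Markers of liver cell types were counted to check the tissue. Of 19 hepatocyte markers 11 had a peak in the 4 lists, 2 after Aroclor1260 and 9 in the combination against input, and 8 and 9 against IgG. Alb, Cps1 and Ass1 were among those with none, so the lists do not measure how strongly a gene is expressed. Endothelial markers had 4 and 4 members of 21 against input and 4 and 5 against IgG, Kupffer cell and macrophage markers 0 and 2 of 19 and 2 and 2, and stellate cell and fibroblast markers 1 and 2 of 18 and 1 and 3. Defining Kupffer cell markers such as Clec4f and Timd4 had none, while Cd5l and Mpeg1 of the same list had peaks. Against input both had peaks in the combination and none after Aroclor1260, 2 for Cd5l and 6 up to 4.47 for Mpeg1. Against IgG, Cd5l had 2 peaks up to 2.5 after Aroclor1260 and 2 up to 2.97 in the combination. Mpeg1 had 6 up to 10.8 and 7 up to 6.8 in the same order, so its higher fold was after Aroclor1260. Dcn, a matrix proteoglycan made by stellate cells, was the only member of these 4 marker lists besides Ttr gained with both references, with 3.30 and 5.00. Markers of cholangiocytes, lymphocytes, neutrophils and erythroid cells had no peak in the 4 lists. The part of cell composition in the differences between the lists was not tested.

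Peaks in both treatments lay towards the 3′ end of genes. Among genes whose strand is known, combination peaks against input found after Aroclor1260 had a median relative position of 0.760 along the gene span, where 0 is the start and 1 the end, and those not found had 0.802. The last 20% of the span held 45.2% of the 261 found and 50.3% of the 1380 not found.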

How the data were processed

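The assay was MeRIP, immunoprecipitation of liver RNA with an m6A antibody, with input and IgG libraries as references. The submitters' processing notes name mm10, BWA 0.7.17, Trimmomatic, FastQC 0.10.1 and bcl2fastq 2.20.0.422. Per the labels the lists are MeTPeak output; the sources used here do not give its version, settings or annotation. Per the file headers each peak has a fold enrichment, a linear ratio computed by the authors' caller. Per the file headers the other columns are the authors' p-value per peak, its log10, and the log10 false discovery rate. No list holds a value for a single animal, so no test across animals was made, and the depth behind the peaks is unknown. The labels do not say whether the 5 libraries of a group came from separate animals. The number of sample columns not used is 0.

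Ensembl identifiers were named through the RefSeq table of GRCm38.p6, where 1 gene held at least 80% of their exonic peak bases on the same strand; 1372 of 1512 were named. Of these, 298 have no strand in the tables, and overlapping genes remain uncertain. Shares have Wilson 95% intervals, which cover counting error only. Python 3.11.15, pandas 2.3.3, numpy 2.4.6 and scipy 1.17.1 were used, and the overlap and gene calls were tested on simulated lists. Genes were named by rule: the 15 strongest gained and the 15 strongest lost (5 qualified), the 10 strongest in all 4 lists, the 10 gained genes with the most peaks, and members of 28 gene lists gained, lost or in all 4 lists. Other genes were named after their values were seen. The members and lists were chosen with earlier results of these data known. Alternatives changed the reference, the overlap rule, the strand rule, the thresholds, the joining of identifiers and the lengths of the lists.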

Additional observations from a re-analysis of the deposited data

How the results depend on the processing

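Values are given first as reported. The ratio of list lengths was 4.51, 1.77 with IgG and 5.31 at a fold of at least 2. The share of Aroclor1260 peaks found in the combination was 88.1%. It was 71.6% with IgG, 44.9% when spans had to overlap by 50% of each peak, 95.1% by gene, 93.0% at a fold of at least 2, 26.3% with equal numbers of peaks by false discovery rate and 50.2% by fold, and with IgG 50.8% and 51.3%. The share of combination peaks absent after Aroclor1260 was 83.5%, and in the same order 63.0%, 89.97%, 74.0% by gene, 77.1% and 61.1% with equal numbers, and 54.995% and 57.8% with equal numbers and IgG. The 527 genes gained against input became 139 and 230 with equal numbers, and 340 with IgG and equal numbers by false discovery rate. The 17 lost became 110 with IgG, 8 at a fold of at least 2, 160 and 78 with equal numbers, and 208 and 184 with IgG besides. Against both references the 241 gained became 51 and 103 with equal numbers, and the 7 lost became 50 and 27, and 2 at a fold of at least 2. More genes were gained than lost under every setting run, except against input with equal numbers by false discovery rate, where 139 were gained and 160 lost.

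Cutting by highest fold was added after the data were seen; cutting the longer list drops peaks by its construction. A false discovery rate of 0.01, overlap of exonic blocks, overlap on either strand and joined identifiers left the results they were run for within the counting interval, or counts within 1.5 times. No paired analysis was possible because the lists hold no value per animal, which also kept any replicate from being left out. Depth is unknown, and absence from a list gives no bound on methylation.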

Other observations

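Hairpins of microRNAs lay inside a few peaks of these lists, and the mature sequences are shown, from RefSeq and 5′ to 3′, with the seed (bases 2 to 8) in capitals. The Mir671 hairpin, on chromosome 5 from 24592114 to 24592211, lay in a peak assigned to Chpf2, a chondroitin-polymerizing factor. That peak had a fold of 4.14 against input and 4.60 against IgG in the combination, and 4.30 and 6.00 after PCB126, and was absent from the Aroclor1260 and control lists. The Mir8114 hairpin, on chromosome 1 from 153899926 to 153900036, reached into a peak of Glul, glutamine synthetase, that all 4 compared lists held at 1.27 and 1.23 against input and 1.52 and 1.47 against IgG, in the order Aroclor1260 and combination. Mir22 lay in a combination peak of its host transcript Mir22hg against IgG alone, at 2.60.
mmu-miR-671-5p: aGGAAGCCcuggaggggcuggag
mmu-miR-671-3p: uCCGGUUCucagggcuccacc
mmu-miR-8114: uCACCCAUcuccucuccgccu
mmu-miR-22-3p: aAGCUGCCaguugaagaacugu
The seeds of these 4 differ from each other. A peak over a hairpin lies on the host RNA, and the lists do not say whether the microRNA itself carries m6A.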
